A study of Mus musculus with 11 samples.

Results

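The comparison described here set 3 libraries of brain cells labelled CD45.2 µ against 3 labelled CD45.1 µ. The members were chosen by their labels alone: the µ libraries of either genotype from the IV, ITL and ICV treatments, 6 of the 11 libraries of the series, with all genes of each count table. The cells were microglia-like cells from mouse brain, sorted as myeloid populations, and polyadenylated RNA was sequenced after competitive transplantation of blood-forming cells in a study of an Alzheimer's disease mouse model. The treatments are delivery routes: into the bloodstream (IV), the lumbar intrathecal space (ITL) or the cerebral ventricles (ICV). Each route gave 1 CD45.1 µ and 1 CD45.2 µ library, so route was the only pairing, and the labels name no animals. The other 5 libraries were CD45.1 TAµ cells by each of the 3 routes, 1 ICV CD45.2 library labelled PBS and 1 library labelled CTR µ, which carries no genotype. The labels do not expand µ, TAµ or PBS and do not say which allele marked the host, and no strain, age, sex or Alzheimer's genotype is given for any library. The number of animals behind a library is not given either. The spread used by the tests is what remained between libraries once population and route were fitted, and it may in part be technical.

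CD45.1 and CD45.2 are the products of alternative alleles of Ptprc, a phosphatase on the surface of all white blood cells, and are used after transplantation to tell donor cells from host cells by antibody. Microglia arise from yolk sac precursors and keep themselves in the brain, guided by the transcription factor Sall1 and by CSF1 receptor signalling. Blood-forming stem cells can replace them with brain macrophages that take on much of the microglial programme, while such macrophages are known for low Sall1 and for high Apoe and Ms4a7. Macrophages at the borders of the brain are a further population, marked by Mrc1, Pf4 and Siglec1.

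Total counts of the 6 libraries ran from 6090589 (ITL CD45.2 µ) to 21282823 (ICV CD45.2 µ). The number of genes with a count was lowest in IV CD45.2 µ (10477), next lowest in ICV CD45.1 µ (11456), and ran from 12192 to 14668 in the others. Levels are given in CPM, counts scaled to the same library total after TMM correction, and 3 counts, the limit that a count of 0 allows, equalled 0.154 to 0.466 CPM. The labelled cell type was checked against defining myeloid and microglial genes, which were present in all 6 libraries: Ptprc at 383 to 725 CPM, Csf1r at 4062 to 5562 CPM, Cx3cr1 at 2031 to 3477 CPM and Trem2 at 207 to 462 CPM. None of these 4 genes separated the populations, and gene counts do not tell the Ptprc alleles apart. Across genes, the ICV CD45.2 µ library had a Spearman correlation of 0.939 with ITL CD45.2 µ, 0.937 with ITL CD45.1 µ, 0.933 with IV CD45.1 µ and 0.857 with IV CD45.2 µ. Its levels of Apoe, Ms4a7 and Mrc1 lay near those of the CD45.1 µ libraries.

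Of 13339 tested genes, 4 changed between CD45.2 µ and CD45.1 µ cells (0.03%) by the quasi-likelihood test of edgeR (Benjamini-Hochberg adjustment, 0.05), and all 4 were lower in CD45.2 µ (0.03%). They were the Y-linked genes Ddx3y, Uty and Kdm5d and the autosomal gene Ctse, which encodes the aspartic protease cathepsin E. No gene was higher (0%), while 659 genes were higher (4.94%) and 514 lower (3.85%) at an unadjusted p under 0.05. In 749 genes (5.62%) all 3 CD45.2 µ values lay above all 3 CD45.1 µ values, and in 602 (4.51%) all 3 lay below. DESeq2 called 278 genes, 233 higher and 45 lower, including these 4, and limma-voom with quality weights called 0. The median log2 difference of all tested genes was -0.01, and 24.99% of genes differed in the same direction by all 3 routes. Signs drawn at random for 3 pairs would agree about as often.

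The Y-linked genes were lower in CD45.2 µ by every route. Ddx3y, an RNA helicase gene on the Y chromosome, was at 246, 53.6 and 32.7 CPM in the IV, ITL and ICV libraries of CD45.1 µ and at 29.96, 1.86 and 0.667 CPM in those of CD45.2 µ. The groups did not overlap, although the IV CD45.2 µ value was close to the ICV CD45.1 µ value. The fitted log2 fold change was -3.40 ± 0.50 (SE, edgeR, adjusted p = 0.0358). Uty, a histone demethylase relative, was at 44.9, 54.1 and 19.3 CPM in CD45.1 µ and at 7.13, 1.24 and 0.103 CPM in CD45.2 µ (-3.65 ± 0.60, edgeR, adjusted p = 0.0423). Kdm5d, which encodes a demethylase of histone H3 lysine, was at 29.03, 33.3 and 16.3 CPM in CD45.1 µ and had 0 counts in the IV and ITL libraries of CD45.2 µ and 0.359 CPM in the ICV one (-6.14 ± 0.99, edgeR, adjusted p = 0.0444). Eif2s3y, a translation initiation factor gene named here after its values were seen, did not pass, with 31.4, 23.7 and 7.18 CPM in CD45.1 µ and 6.04, 0.310 and 0.205 CPM in CD45.2 µ (-3.02 ± 0.70, edgeR, adjusted p = 0.389). These 4 were all the tested genes of 10 listed on the Y chromosome, and the other 6 had no count in any of the 6 libraries. Their summed level was 351, 165 and 75.5 CPM in CD45.1 µ, 43.1, 3.42 and 1.33 CPM in CD45.2 µ, 461, 316 and 210.5 CPM in CD45.1 TAµ, 0.0511 CPM in PBS and 338 CPM in CTR µ.

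Within each library the Y-linked genes can be set against their X-linked partners, which are expressed in cells of both sexes. Ddx3y made up 22%, 7.16% and 3.61% of the summed Ddx3x and Ddx3y level in the IV, ITL and ICV libraries of CD45.1 µ, and 2.55%, 0.234% and 0.0763% in those of CD45.2 µ. In CD45.1 TAµ that share was 18.8%, 16.7% and 14.96%, and in CTR µ 18.01%. The X-linked partners did not pass the test: the log2 fold change was 0.19 for Ddx3x, 0.12 for Kdm6a, -0.02 for Kdm5c and 0.54 for Eif2s3x. The signs for Kdm6a, Kdm5c and Eif2s3x turned when some libraries were left out. Xist, the non-coding RNA that silences an X chromosome in female cells, was at 296, 1323 and 5786 CPM in CD45.1 µ and at 3789.8, 5097 and 6989.6 CPM in CD45.2 µ. The groups overlapped through the ICV CD45.1 µ library, and Xist did not pass (2.24 ± 0.51, edgeR, adjusted p = 0.389). Without the ICV CD45.2 µ library Xist was called higher (3.01, edgeR, adjusted p = 0.00335). Xist was at 11.6, 54.9 and 489 CPM in CD45.1 TAµ, at 6126 CPM in the PBS library and at 0 counts in CTR µ, where 3 counts would be 0.249 CPM. The labels give the sex of neither donors nor hosts, so for these genes a difference in sex and one between the populations cannot be told apart.

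**Figure D1:**
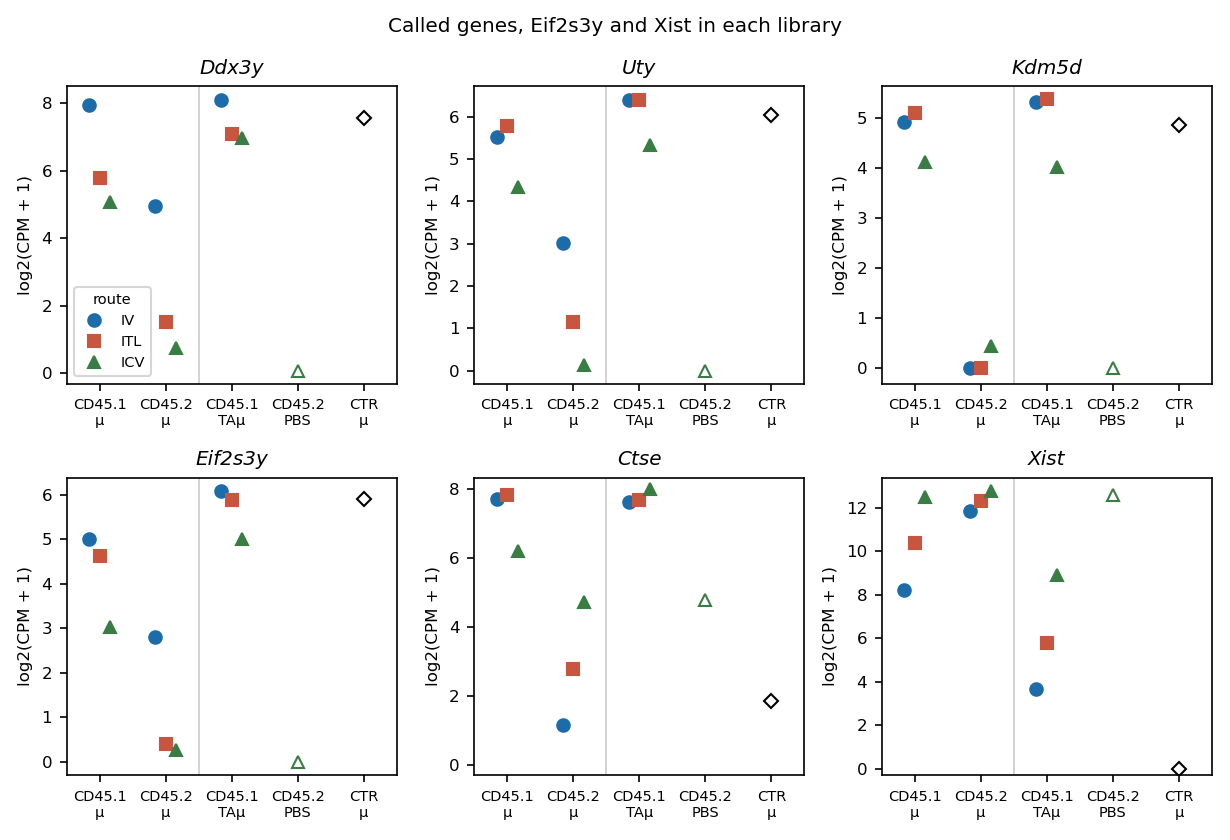
Level of the 4 called genes, Eif2s3y and Xist in each library, as log2(CPM + 1), by population and delivery route; open symbols are the single PBS and CTR µ libraries, which were not in the test. In each of the 5 panels other than Xist the 3 CD45.2 µ libraries lie below the 3 CD45.1 µ libraries, and Ctse in CTR µ is at 2.57 CPM where Ddx3y is at 186 CPM.

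Ctse was the single autosomal gene called. It was at 209, 227 and 73.1 CPM in the IV, ITL and ICV libraries of CD45.1 µ and at 1.24, 5.90 and 25.7 CPM in those of CD45.2 µ. The means were 169.7 ± 84.2 and 10.9 ± 13 CPM (SD, n = 3 each), the groups did not overlap, and the log2 fold change was -3.81 ± 0.59 (edgeR, adjusted p = 0.0423). The difference narrowed over the routes, with log2 values of -7.23 by IV, -5.23 by ITL and -1.50 by ICV. These are single pairs, so whether the difference between the populations varied by route could not be tested. In the 3 CD45.1 TAµ libraries Ctse was at 195, 204 and 255 CPM, as high as in IV and ITL CD45.1 µ. Outside the 9 fitted libraries, CTR µ had 338 CPM of summed Y-linked genes with 2.57 CPM of Ctse, and the PBS library was low in both, at 0.0511 and 26.5 CPM. Of the 20 tested genes of a list of cathepsins and aspartic proteases, Ctse was the single one called by edgeR, and DESeq2 also called 1. The next by p were Ctsc, cathepsin C, at 844, 895 and 1024 CPM in CD45.1 µ against 366, 456 and 1059 CPM (-0.68), and Ctsf, cathepsin F, at 36.7, 66.0 and 24.1 CPM against 75.3, 72.8 and 53.7 CPM (0.74), and neither passed. Of the 20 genes 11 were positive and 9 negative, with a median of 0.13 that ran from -0.30 to 0.20 over the alternatives.

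The 4 calls rested on the whole layout of 9 libraries. None was made in the 6 libraries alone (Ctse, edgeR, adjusted p = 0.697) or without the route block (0.0582). Ctse did not pass either once Rn45s, Xist and the Y-linked genes were taken out (edgeR, adjusted p = 0.0849), and over all alternatives the adjusted p of Ctse ran from 0.00116 to 0.703. Leaving out 1 of the 9 libraries gave 0 changed genes for the IV or ITL library of CD45.1 µ or the ITL one of CD45.2 µ, and 1 for the ICV library of CD45.1 µ or the IV or ICV one of CD45.1 TAµ. It gave 3 for the IV library of CD45.2 µ or the ITL one of CD45.1 TAµ, and 29 for ICV CD45.2 µ. All 4 genes stayed lower under every alternative that gave them a value.

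The 29 genes called by edgeR without the ICV CD45.2 µ library held all 4 of these and 17 lower and 12 higher genes in all. Among the lower were Mrc1 (-1.90, adjusted p = 0.00537), Apoe (-2.05, adjusted p = 0.0258), Lyz2 (-1.81, adjusted p = 0.0302), Pf4 (-2.74, adjusted p = 0.0229), Reps2 (-2.23, adjusted p = 0.0434) and Hacd4 (-2.48, adjusted p = 0.0453). Among the higher were Xist, Csf1 (2.68, adjusted p = 0.0141), Gem (2.98, adjusted p = 0.0229), Apod (4.77, adjusted p = 0.00715), Ptn (3.67, adjusted p = 0.0429) and Sparcl1 (2.73, adjusted p = 0.0229). That fit set 2 CD45.2 µ libraries against 3 and was chosen among 9 such fits. None of these genes beyond the 4 passed with all libraries.

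Beyond the 4 calls, 20 genes were followed because their groups did not overlap and their p was lowest, 10 in each direction, and none of them passed. Gem, a small GTP-binding protein of the RGK family, was at 21.7, 44.6 and 14.4 CPM in CD45.1 µ and at 318, 173 and 46.6 CPM in CD45.2 µ (2.55 ± 0.46, edgeR, adjusted p = 0.107). CTR µ had 289 CPM of Gem and the CD45.1 TAµ libraries 7.44 to 25.2 CPM. Socs3, an inhibitor of JAK-STAT signalling, was at 137, 104 and 77.2 CPM against 256, 222 and 160.5 CPM, with nearly the same step by each route (1.01 ± 0.24, edgeR, adjusted p = 0.389). Ccl4, a chemokine of activated macrophages and microglia, was at 235, 166 and 255 CPM against 508, 483 and 353 CPM (1.03 ± 0.25, edgeR, adjusted p = 0.390). Nfkbib, an inhibitor of NF-kB, was at 46.1, 29.3 and 9.49 CPM against 80.9, 67.5 and 64.5 CPM (1.52). Gas2l3, a cytoskeletal linker, had a log2 fold change of 1.67. The remaining 5 of the 10 higher genes are known from astrocytes and other glia: Atp1b2, a subunit of the sodium pump (3.09), the lipocalin Apod (3.48), the growth factor Ptn (2.86), the matrix protein Sparcl1 (2.04) and the bicarbonate transporter Slc4a4 (2.80). DESeq2 called 9 of the 10 higher and 6 of the 10 lower genes, against 233 higher and 45 lower of all 13339 tested genes. The 20 were picked by p and separation in the same counts, so these calls are no separate support.

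Among the 10 lower genes, Siglec1, a sialic acid receptor of macrophages, was at 200.1, 230.1 and 181 CPM in CD45.1 µ and at 76.0, 31.4 and 119 CPM in CD45.2 µ (-1.45 ± 0.34, edgeR, adjusted p = 0.389). Pf4, a chemokine of platelets and border macrophages, was at 138, 131 and 89.7 CPM against 23.1, 10.2 and 80.0 CPM (-1.75 ± 0.46, edgeR, adjusted p = 0.457). The Pf4 groups were kept apart by 89.7 against 80.0 CPM in the ICV pair. Hacd4, a dehydratase of very long chain fatty acid elongation, was at 71.2, 88.1 and 136 CPM against 8.22, 27.8 and 59.1 CPM (-1.73). Cyp4f18, a cytochrome P450 that hydroxylates leukotriene B4, was at 93.3, 98.3 and 107 CPM against 33.3, 53.6 and 59.8 CPM (-1.05), while CTR µ had 4.90 CPM. Reps2, an adaptor of endocytosis, was at 95.7, 106 and 131 CPM against 27.998, 11.2 and 87.7 CPM (-1.50). The other 5 were the helicase Ddx60 (-1.30), the ubiquitin ligase Shprh (-1.15), the zinc finger gene Zcchc9 (-2.05), Dpy19l4 (-0.93) and the scaffold gene Homer1 (-1.88).

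**Figure D2:**
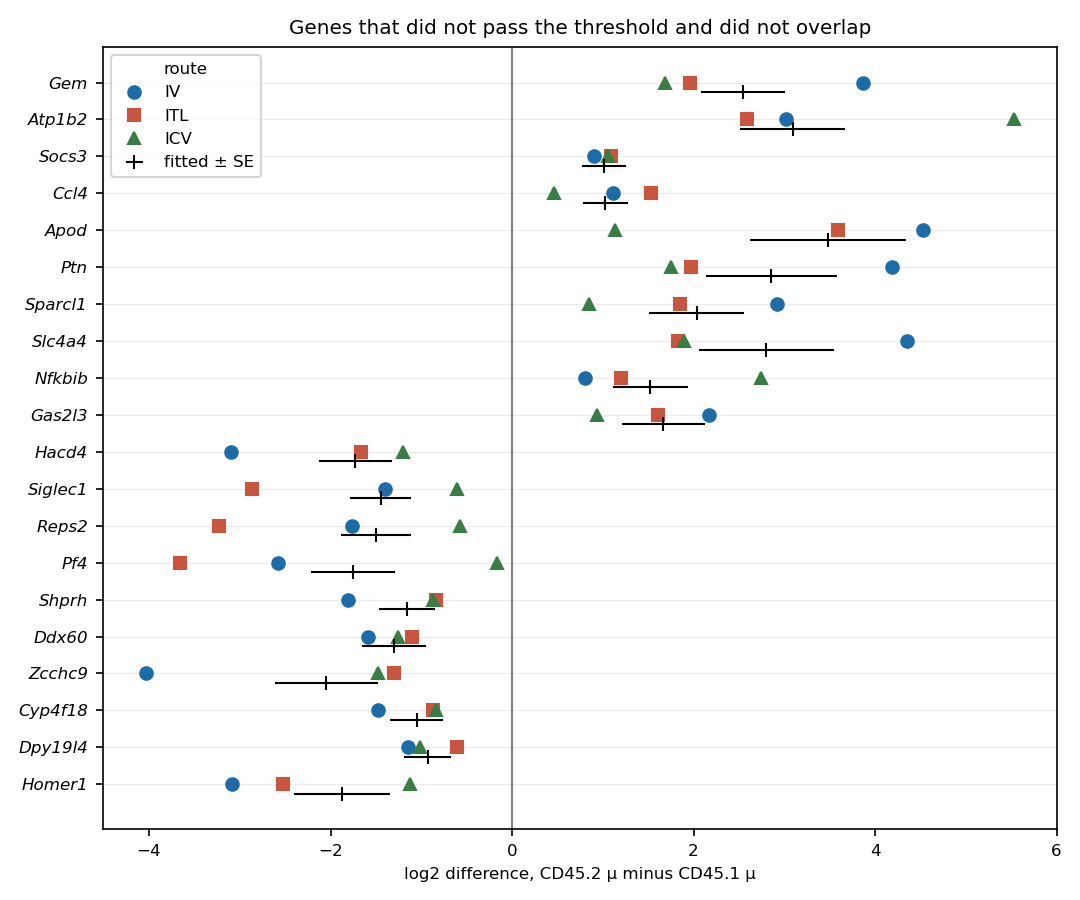
Log2 difference between CD45.2 µ and CD45.1 µ within each route for the 10 higher and 10 lower genes with the lowest p that did not pass the test and whose groups did not overlap; the black marks are the fitted log2 fold change with its SE. The 3 routes lie close together for Socs3 (fitted 1.01) and far apart for Pf4, where the ICV pair is near 0 and the fitted value is -1.75.

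Homeostatic microglial genes were mostly higher in CD45.2 µ, by small steps that did not pass the test. Of 30 tested members of the list, 25 had a positive fitted value and none was called by edgeR. DESeq2 called 2 higher, against 233 of all 13339 tested genes. None had groups that did not overlap, against 5.62% of all tested genes that were higher without overlap. The median was 0.41, against -0.01 for all genes, and within the routes it was 0.63 (IV), 0.40 (ITL) and 0.19 (ICV). Over the alternatives the fitted median ran from 0.24, without the 2 libraries with the fewest genes, to 0.62, without the ICV CD45.2 µ library. Sall1, the transcription factor that keeps microglial identity, was at 80.0, 348 and 109 CPM in CD45.1 µ and at 483, 645 and 187 CPM in CD45.2 µ (1.44 ± 0.35, edgeR, adjusted p = 0.389). It was higher in CD45.2 µ in each of the 3 pairs, yet ITL CD45.1 µ lay above ICV CD45.2 µ. CD45.1 TAµ had 2.11 to 8.57 CPM of Sall1 and CTR µ 1056 CPM, so both µ populations lay between them. Slc2a5, a fructose transporter of microglia, was at 49.3, 158 and 36.1 CPM against 250.2, 251 and 74.3 CPM (1.34). P2ry12, the ADP receptor of resting microglia, was at 991, 2348 and 1289 CPM against 2655, 3146 and 1429 CPM (0.69), and Siglech had a log2 fold change of 0.59. Cx3cr1, the fractalkine receptor, was at 2031, 3341 and 2569 CPM against 2513, 3477 and 3404 CPM (0.25 ± 0.20). Fewer cells of a type and less RNA per cell cannot be told apart in such bulk libraries.

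Genes known from graft-derived brain macrophages were lower in CD45.2 µ by the IV and ITL routes and not by ICV. Of 26 tested members, 21 had a negative fitted value and none was called by edgeR. Cyp4f18 was the single member that was lower without overlap (3.85%, against 4.51% of all tested genes) and the single one called by DESeq2 (adjusted p = 0.0468). The median was -0.59 over the fit, -1.07 by IV and -0.95 by ITL, but 0.13 by ICV, where 18 of the 26 were higher in CD45.2 µ. Over the alternatives the fitted median ran from -1.15, without the ICV CD45.2 µ library, to -0.26, without the IV route. Apoe, a lipid carrier and risk gene of Alzheimer's disease, was at 24130.3 CPM (IV), 22487 CPM (ITL) and 16129 CPM (ICV) in CD45.1 µ and at 6146, 3965 and 21322 CPM in CD45.2 µ. The IV and ITL libraries of CD45.2 µ were thus low, the ICV library as high as CD45.1 µ, and the difference did not pass (-1.32 ± 0.42, edgeR, adjusted p = 0.485). CTR µ had 575 CPM of Apoe. Tlr8, a sensor of single-stranded RNA, was at 159, 173 and 285 CPM against 24.7, 71.7 and 214 CPM (-1.22). Ms4a7, a membrane protein used to mark graft-derived macrophages, was at 114, 99.9 and 190.2 CPM against 45.5, 36.6 and 195 CPM (-0.69, or -1.54 without ICV CD45.2 µ), with 182 to 296 CPM in CD45.1 TAµ and 5.73 CPM in CTR µ. The gene for lysozyme, Lyz2, was at 2881, 2718 and 1542 CPM against 516, 1164 and 1834 CPM (-1.13).

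**Figure D3:**
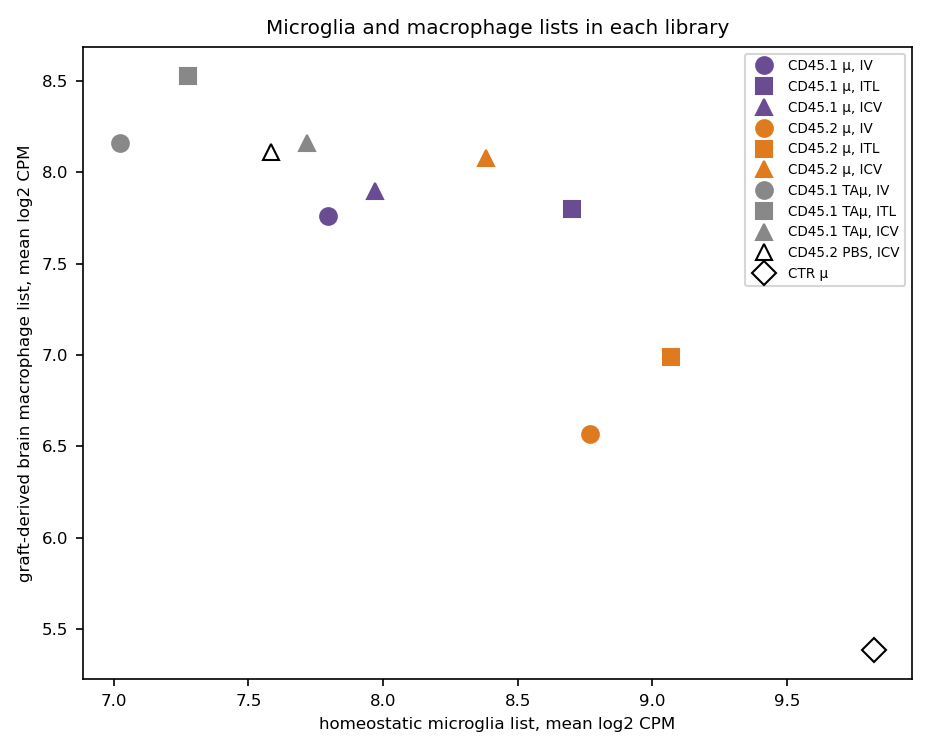
Mean log2 CPM of the homeostatic microglia list (30 genes, horizontal axis) and the graft-derived brain macrophage list (26 genes, vertical axis) in each of the 11 libraries. IV and ITL CD45.2 µ lie apart at 6.57 and 6.99 on the vertical axis, while ICV CD45.2 µ, at 8.08, is at or above the CD45.1 µ libraries (7.76 to 7.90), and CTR µ is at 9.82 and 5.38.

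Most border macrophage genes had lower fitted values in CD45.2 µ. Of 20 tested members 18 were negative, with a median of -0.78, and 4 (20%) were lower without overlap, against 4.51% of all tested genes. None was called by edgeR. DESeq2 called 3 lower, against 45 of all 13339 tested genes: Mrc1 (adjusted p = 0.000255), Siglec1 (0.00425) and Pf4 (0.0071). Mrc1, the mannose receptor of macrophages, was at 1599.8, 1283 and 1942 CPM in CD45.1 µ and at 409.9, 359.7 and 1514 CPM in CD45.2 µ (-1.32 ± 0.29, edgeR, adjusted p = 0.389). The ICV CD45.2 µ value lay among those of CD45.1 µ. Cd36, a scavenger receptor for lipids, was at 132, 74.4 and 68.4 CPM against 51.9, 35.4 and 51.9 CPM (-0.90). Siglec1 and Pf4, given above, and the folate receptor gene Folr2, named after its values were seen, were the others without overlap, and by ICV the list's median was -0.46.

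The promoters of Mrc1, Pf4 and Socs3 are shown because these were the border macrophage and inflammatory genes of lowest p with an entry in the RefSeq table (GRCm38.p6), 250 bases before to 50 after the gene's start, 5′ to 3′ on the gene's strand. Capitals mark GAGGAA (or TTCCTC on the other strand), the core bound by PU.1 and other ETS factors of myeloid cells, in Mrc1 and Pf4, and TTCNNNGAA, the element bound by STAT factors, in Socs3. The Mrc1 window (chr2:14229164-14229463, + strand) held 3 matches of the first motif, the Pf4 window (chr5:90772185-90772484, + strand) 1 and the Socs3 window (chr11:117969317-117969616, - strand) none, and Socs3 held 1 match of the second. Of 32851 windows of the same length, 28.3% held GAGGAA and 8.30% held TTCNNNGAA on either strand, so such matches are common and are given as a description.
Mrc1: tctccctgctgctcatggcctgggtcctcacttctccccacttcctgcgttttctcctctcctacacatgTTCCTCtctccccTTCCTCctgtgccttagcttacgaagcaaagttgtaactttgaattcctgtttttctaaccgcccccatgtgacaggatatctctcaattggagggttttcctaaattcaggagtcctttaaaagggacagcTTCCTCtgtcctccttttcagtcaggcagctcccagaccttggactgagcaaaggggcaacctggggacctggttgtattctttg
Pf4: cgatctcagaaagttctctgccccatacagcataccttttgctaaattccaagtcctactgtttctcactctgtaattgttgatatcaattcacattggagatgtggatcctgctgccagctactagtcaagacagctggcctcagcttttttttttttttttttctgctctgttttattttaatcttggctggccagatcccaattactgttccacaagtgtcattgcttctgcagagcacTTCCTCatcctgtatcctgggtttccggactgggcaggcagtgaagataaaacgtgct
Socs3: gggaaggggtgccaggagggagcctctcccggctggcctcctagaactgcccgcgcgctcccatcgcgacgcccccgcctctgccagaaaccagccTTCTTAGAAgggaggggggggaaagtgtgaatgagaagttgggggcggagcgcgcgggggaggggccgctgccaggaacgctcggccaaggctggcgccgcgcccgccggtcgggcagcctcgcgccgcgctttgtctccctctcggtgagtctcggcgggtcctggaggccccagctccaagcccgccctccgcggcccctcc

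Inflammatory genes tended to be higher in CD45.2 µ without passing the test. Of 30 tested cytokine and NF-kB genes 23 were positive and 4 (13.3%) were higher without overlap, against 5.62% of all tested genes: Socs3, Rela, Lif and Tnf, with Rela at 1.06, Lif, named after its values were seen, at 1.53 and Tnf at 0.43 on the log2 scale. The list's median was 0.23, and 0.067 without ICV CD45.2 µ. None was called by edgeR, and DESeq2 called 2 higher, against 233 of all 13339 tested genes. Il1a, which encodes interleukin-1 alpha, was at 296, 247 and 206 CPM in CD45.1 µ and at 679, 359.5 and 280.3 CPM in CD45.2 µ (0.74 ± 0.23, edgeR, adjusted p = 0.485). Tnf, a cytokine of activated macrophages, was at 159, 147 and 135 CPM against 206, 191 and 197 CPM. Rela, a subunit of NF-kB, was at 68.4, 56.7 and 23.4 CPM against 152, 70.2 and 91.2 CPM. Immediate-early genes, which are induced within minutes of a stimulus and by tissue handling, had a median of 0.27 with 22 of 28 positive, -0.23 by IV, and 0.059 without ICV CD45.2 µ. Egr1, a transcription factor of this class, was at 1194, 422 and 713 CPM against 3713, 1706 and 962 CPM (1.36 ± 0.30, edgeR, adjusted p = 0.389). ITL and IV CD45.2 µ were high for Egr1, and ICV CD45.2 µ lay below IV CD45.1 µ. Egr3 and Atf3 were at 1.23 and 0.50. The part of tissue handling in these values was not tested.

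Of 40 interferon response genes 28 were negative, with a median of -0.48. The median was -0.19 to -0.73 on leaving out 1 library, and -0.0020 without the 2 libraries with the fewest genes, which were given above. Oasl1 was higher without overlap (2.5%, against 5.62% of all tested genes) and 2 were lower (5%, against 4.51%), Slfn8 and Trim30a, named after their values were seen. Oasl1, an RNA-binding member of the oligoadenylate synthetase family, was at 5.05, 6.18 and 0 CPM against 44.9, 8.38 and 14.4 CPM (2.59). Rtp4 was at 13.9, 19.4 and 37.7 CPM against 0.0727, 6.83 and 15.9 CPM (-1.64), and the guanylate-binding protein gene Gbp3 had a log2 fold change of -0.85. None of the 40 was called by edgeR or DESeq2.

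The list of disease-associated microglia, the state described around amyloid plaques, did not lean one way over the fit. Of 25 members 13 were positive, with a median of 0.10 that ran from -0.51 to 0.21 over the alternatives. The routes differed: by ITL 17 were lower in CD45.2 µ (median -0.76), and by ICV 20 were higher (0.40). Without overlap 2 were higher (8%, against 5.62% of all tested genes) and 1 lower (4%, against 4.51%). The list held genes of both directions, and DESeq2 called 2 higher and 1 lower, against 233 and 45 of all 13339 tested genes. Csf1, the growth factor of microglia, was at 43.8, 32.3 and 23 CPM in CD45.1 µ and at 340.1, 130.2 and 29.7 CPM in CD45.2 µ (2.005 ± 0.49, edgeR, adjusted p = 0.395), while its receptor Csf1r was at -0.12. Igf1, insulin-like growth factor 1, was at 126, 155 and 161 CPM against 53.9, 38.3 and 127 CPM (-1.09). Trem2, the lipid receptor that this state depends on, was at 462, 414 and 207 CPM against 334, 339 and 336 CPM (-0.10 ± 0.31), and its sign turned when some libraries were left out. In a list of 31 tested Alzheimer risk genes, 14 were positive, with a median of -0.02.

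Over the fit, the medians of the lists of cell functions were close to that of all genes. The median was -0.02 for 16 antigen presentation genes of MHC class II, -0.01 for 16 of MHC class I, -0.06 for 37 lysosomal genes, -0.15 for 35 genes of oxidative phosphorylation, -0.17 for 39 cell cycle genes and 0.00 for 23 genes of TGF-beta signalling. None of their members was called by edgeR or DESeq2. The routes differed for MHC class II, at -0.26 by IV, -0.02 by ITL and 0.71 by ICV, where 13 of the 16 were higher. Its fitted median ran from -0.36 to 0.37 over the alternatives, and that of oxidative phosphorylation from -0.46 to 0.20. Of the oxidative phosphorylation genes 4 (11.4%) were lower without overlap, against 4.51% of all tested genes, and 1 (2.86%) was higher, against 5.62%. In 29 genes of lipid efflux and cholesterol the median was 0.25, and Fasn, fatty acid synthase, was at 40.3, 55.8 and 7.93 CPM against 139, 65.4 and 56.3 CPM (1.37). Ceruloplasmin, Cp, of the iron and heme list was at 314, 184 and 361 CPM against 136, 53.2 and 307 CPM (-0.95), and the list's median was -0.11.

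**Figure D4:**
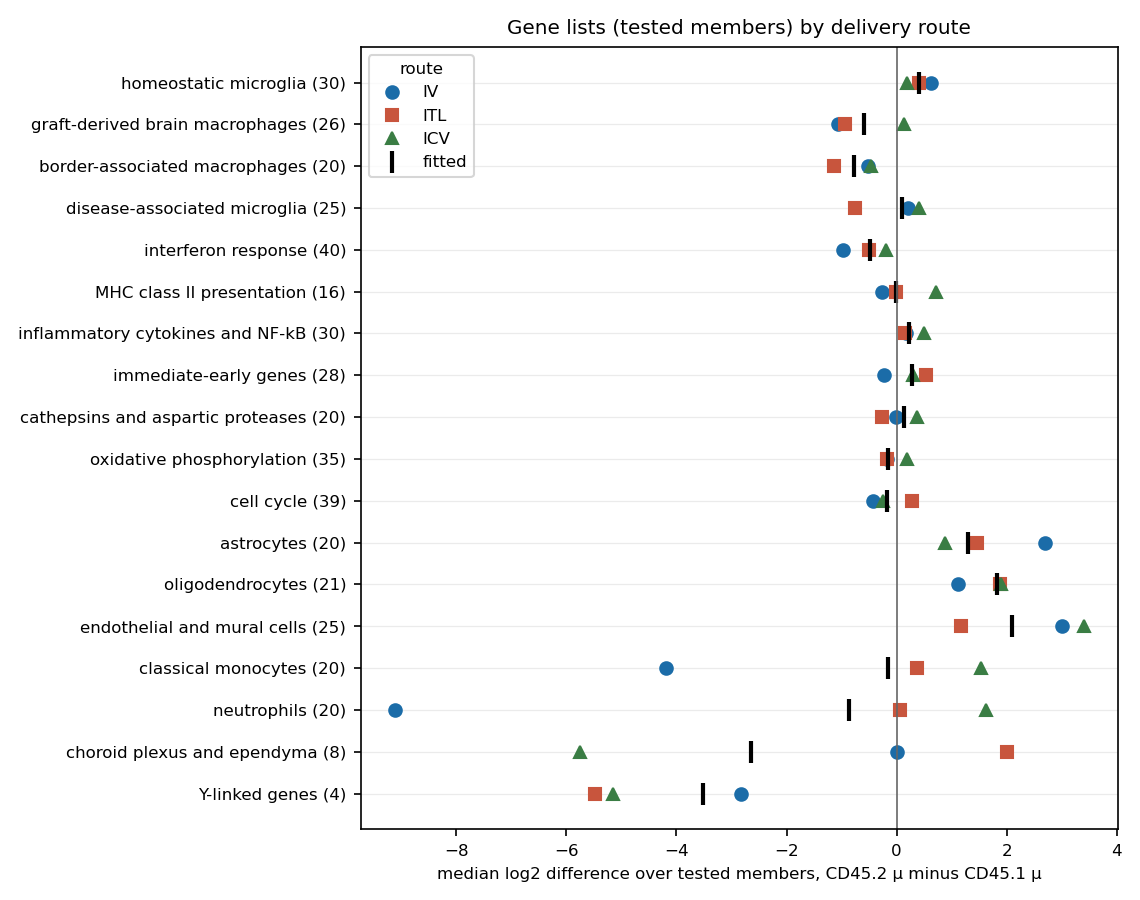
Median log2 difference between CD45.2 µ and CD45.1 µ over the tested members of 18 lists (number of members in brackets), by route, with the median of the fitted values as a black bar. The routes differ in sign for the graft-derived macrophage list (-1.07, -0.95 and 0.13) and are widest apart for neutrophil genes, from -9.11 by IV to 1.62 by ICV.

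Most astrocyte, endothelial and oligodendrocyte markers had higher values in CD45.2 µ, and none was called by edgeR. Neuron genes did not lean that way (7 of 16 positive, median -0.21), nor did choroid plexus genes over the fit (0 of 8 positive, median -2.65). By ITL, however, 7 of these 8 were higher in CD45.2 µ (median 2.01). The fitted choroid plexus median was 0.95 without the 2 libraries with the fewest genes and 1.82 without the ICV route. Of 20 tested astrocyte genes 18 were positive and 11 (55%) were higher without overlap, against 5.62% of all tested genes, with a median of 1.30. Slc1a3, a glutamate transporter of astrocytes, was at 26.4, 72.3 and 15.4 CPM in CD45.1 µ and at 183, 192 and 59.4 CPM in CD45.2 µ (2.03 ± 0.49, edgeR, adjusted p = 0.389), and CTR µ had 139 CPM. Of 25 endothelial and mural genes 22 were positive and 5 (20%) were higher without overlap, with a median of 2.10. Emcn, a sialomucin of endothelial cells, had 0 counts in the 3 CD45.1 µ libraries and was at 27.7, 6.68 and 3.44 CPM in CD45.2 µ, a mean at least 54.9-fold higher when each CD45.1 µ library is set at 3 counts. Flt1, a VEGF receptor, was at 8.11, 19.3 and 6.69 CPM against 65.9, 66.1 and 22.9 CPM (2.26), and the membrane protein gene Itm2a at 0.999, 2.82 and 0.413 CPM against 21.6, 18.3 and 6.93 CPM (3.38). The other two, Tek and Egfl7, named after their values were seen, had log2 fold changes of 3.78 and 2.77. Of 21 oligodendrocyte genes 16 were positive and 3 (14.3%) higher without overlap, with a median of 1.83: Pdgfra and, named after their values were seen, Mog (4.04) and Sox10 (4.49). Pdgfra, a receptor of oligodendrocyte precursors, had 0 counts in CD45.1 µ and was at 3.93, 7.92 and 4.67 CPM in CD45.2 µ, at least 23.98-fold higher on the same rule. DESeq2 called 4 astrocyte, 4 endothelial and mural and 5 oligodendrocyte genes higher, against 233 of all 13339 tested genes. Without ICV CD45.2 µ the medians were 2.32 for astrocytes, 3.04 for endothelial and mural cells and 3.06 for oligodendrocytes. Without the 2 libraries with the fewest genes they were 0.69, -0.013 and -0.21, so only the astrocyte median of these 3 kept its sign there. On leaving out 1 library the endothelial and mural median was lowest at 0.61 and the oligodendrocyte one at 1.12. The summed level of the astrocyte list was 762, 931 and 767 CPM in the IV, ITL and ICV libraries of CD45.1 µ against 1864, 1590.0 and 1060.4 CPM in those of CD45.2 µ, and that of the endothelial and mural list 307, 359.6 and 278 CPM against 908, 678 and 346 CPM. The oligodendrocyte sums overlapped, at 1193, 1568 and 1109 CPM against 1591, 1729 and 1293 CPM. In CD45.1 TAµ the astrocyte sums were 589, 680 and 1225 CPM and the endothelial and mural ones 215, 363 and 1175 CPM. The oligodendrocyte sums there were 849, 1434 and 3124 CPM. The PBS library had 577, 222 and 1016 CPM of the astrocyte, endothelial and mural, and oligodendrocyte lists. CTR µ had 1483, 377 and 954 CPM, so its astrocyte sum lay within the range of the CD45.2 µ libraries. The part of these cells in the glial genes named above, Atp1b2, Apod, Ptn, Sparcl1 and Slc4a4, was not tested.

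Neutrophil, monocyte and choroid plexus genes were high or low in single libraries. The neutrophil gene S100a8, an alarmin subunit, was at 2203, 656 and 153 CPM in CD45.1 µ and at 0.800, 852 and 632 CPM in CD45.2 µ (-0.30 ± 1.10). IV CD45.1 µ was the highest and IV CD45.2 µ the lowest of the 6 libraries, and the summed neutrophil list was 15159.8, 4300.2 and 1757 CPM against 483, 4764 and 3824 CPM. Its median was therefore -9.11 by IV and 1.62 by ICV. The classical monocyte list had 5485, 3968 and 2254 CPM in CD45.1 µ against 755, 3334 and 3286 CPM in CD45.2 µ, with the extracellular matrix gene Fn1 at 77.3, 97.6 and 39 CPM against 78.6, 439 and 102 CPM (1.31). Choroid plexus genes were led by ICV CD45.1 µ: Ttr, the thyroid hormone carrier transthyretin, was at 0, 17.8 and 785 CPM against 4.73, 32.1 and 3.70 CPM, and the prolactin receptor gene Prlr at 0, 0 and 45.7 CPM against 0, 0 and 0.103 CPM. Ttr turned from -3.12 to 0.47 without that library. T and NK cell genes summed to 16.7 to 57.8 CPM in the 6 libraries, B cell genes to 16.9 to 61.4 CPM and neuron genes to 28.7 to 63.7 CPM. In the erythroid and megakaryocyte list, 8 of 18 listed genes were tested, and 3 of them (37.5%) were higher without overlap, against 5.62% of all tested genes: Gp9, Alas2 and the erythropoietin receptor gene Epor, named after its values were seen. These shares are not a like comparison, since a gene can pass the count filter through its CD45.2 µ libraries alone. Alas2 did so, with 0 counts in CD45.1 µ and at most 0.255 CPM in CD45.1 TAµ, so it could only be higher. The median was 2.15, or 1.95 with genes at 0 counts in a group set at their bound. It ran from 0.70 to 3.06 on leaving out 1 library and was -1.81 with a filter of 10 CPM in 3 libraries, so its sign depended on genes of low count. Pf4, given above, was the member that was lower without overlap. DESeq2 called 1 member each way, against 233 higher and 45 lower of all 13339 tested genes. Epor was at 0.118, 0 and 0.248 CPM in CD45.1 µ and at 7.35, 5.59 and 3.49 CPM in CD45.2 µ. Gp9, a platelet glycoprotein, was at 1.12, 0.618 and 0 CPM against 12.9, 8.23 and 1.90 CPM, and Alas2, of heme synthesis, had 0 counts in CD45.1 µ and 13.5, 0.931 and 1.03 CPM in CD45.2 µ, while the hemoglobin genes Hba-a1, Hba-a2, Hbb-bs and Hbb-bt had 0 counts in all 6 libraries.

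**Figure D5:**
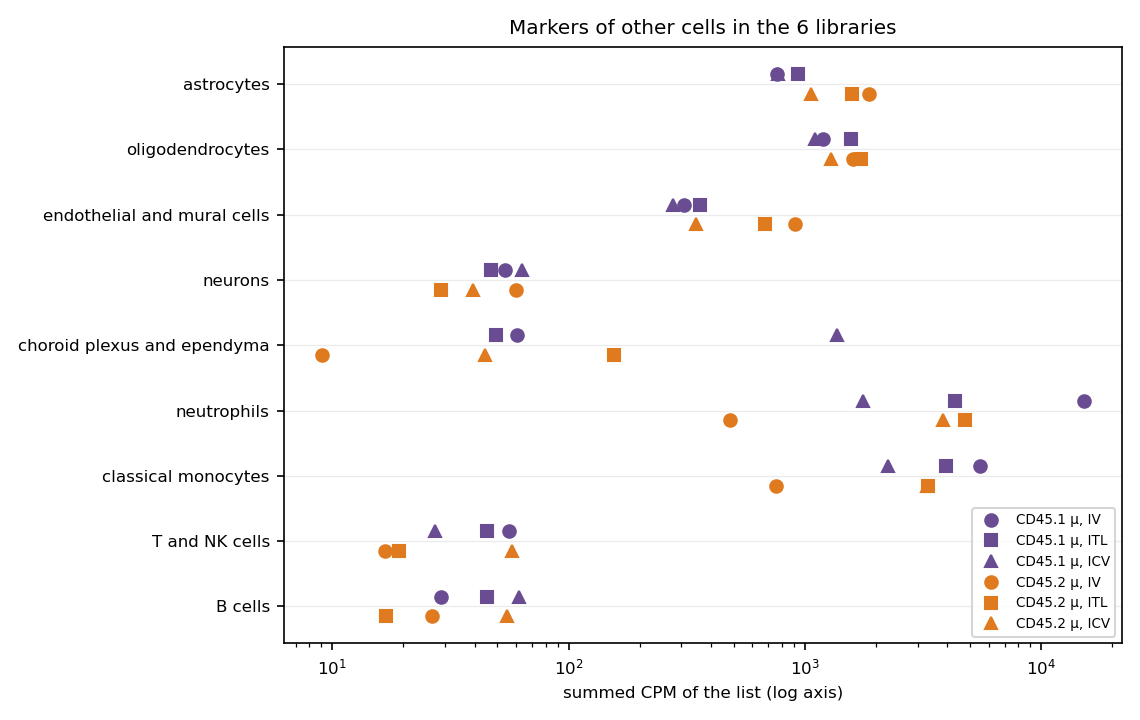
Summed CPM of marker lists of other cells (log axis) in the 3 CD45.1 µ and 3 CD45.2 µ libraries. The astrocyte list separates the populations, from 762 to 931 CPM against 1060.4 to 1864 CPM, while the neutrophil list spans 483 to 15159.8 CPM with its extremes in the IV pair.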

How the data were processed

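The authors deposited 1 table per library with a raw gene count in 24411 genes, and 11 such tables were read. Per the labels' protocols, RNA from sorted brain myeloid cells was extracted with a micro kit and reverse-transcribed. Per the submitters' processing notes, reads were aligned with STAR to mm39 (GRCm39). Not given in the sources used here are the STAR version, the annotation, the counter and the use of strand, so overlapping and antisense genes may share reads.

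The 9 libraries of the CD45.2 µ, CD45.1 µ and CD45.1 TAµ populations were fitted together in edgeR 4.0.16 (R 4.3.3) with TMM scaling and population and route as additive terms, which left 4 residual degrees of freedom. Route is the pairing of the design and was kept as the block. Genes were kept by filterByExpr (minimum count 10, minimum total 15), which left 13339, and tested by the quasi-likelihood F test with Benjamini-Hochberg adjustment at 0.05. Fitted log2 values use a prior count of 2, and the SE is the fold change divided by the square root of F. With 3 libraries a group, an exact permutation test of 1 gene could not go below p = 0.1, or 0.25 when paired, so none is given. The procedure was also run on simulated counts with planted changes, drawn with the spread of its own fit. Such counts hold no outlying library and no difference that varies by route, so they do not test the method for these. No 2 libraries agreed within sampling noise. DESeq2 1.42.0 and limma 3.58.1 were alternatives.

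The members and the 37 gene lists (802 genes, 785 in the tables) were chosen with earlier results of these data known. Genes were named by rule: all called genes; the 10 each way with the lowest p among uncalled genes without overlap and at a mean of at least 3 log2 CPM; up to 4 members a list; and Ptprc, Trem2, Cx3cr1, Apoe, Xist and the X-linked partners. Promoters and chromosomes came from RefSeq for GRCm38, another build than the counts, matched by symbol. Some results are not reported here.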

Additional observations from a re-analysis of the deposited data

Results flagged for a closer look

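The PBS library, labelled CD45.2 and ICV, entered no comparison above, and 2 genes of the comparison were higher there than in the library labelled CTR µ. Ctse was at 26.5 CPM in the PBS library (exact Poisson 95% interval 24.3 to 28.9, counting error only) against 2.57 CPM (1.75 to 3.65) in CTR µ. Xist was at 6126 CPM (6091 to 6160.3) in the PBS library against 0 counts in CTR µ. Each is 1 library, so neither difference was tested. Groups of 3 libraries were not tested for outlying values.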

How the results depend on the processing

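The count of 4 changed genes was 4 with DESeq2's size factors in edgeR, 6 with no filter on low counts, 5 with all 11 libraries, 3 without the 2 libraries with the fewest genes and 3 without the ICV route. It was 278 in DESeq2 and 0 under 8 alternatives. Those 8 are given with their genes at an unadjusted p under 0.05: a filter of 10 CPM in 3 libraries (640), the legacy quasi-likelihood fit (744), limma-voom with quality weights (1240), no replicate block for route (1174), the 6 libraries alone (712), without Rn45s, Xist and the Y-linked genes (1185), without the IV route (881) and without the ITL route (593). Of the 4 genes, Ddx3y, Uty and Kdm5d could not be called once the Y-linked genes were taken out, so for them that 0 bears on Ctse alone. Leaving out 1 library at a time gave 0 to 29. The cause of these shifts was not tested. Route is the pairing of the main analysis, since the labels give no replicate numbers, and the count without that block is given above.

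The log2 fold change stayed negative in every alternative for Ddx3y (-6.00 to -2.99), Ctse (-6.16 to -2.88), Uty (-5.78 to -3.22) and Kdm5d (-7.86 to -5.35). Medians of the marker lists are given beside their counts. Of genes that did not pass, these turned in sign, and the cause was not tested. Leaving out 1 library gave -0.13 to 0.38 for Kdm6a, -0.15 to 0.083 for Kdm5c, -0.49 to 0.37 for Trem2, -0.23 to 0.15 for Ptprc, -0.31 to 0.051 for Csf1r, -1.82 to 0.96 for S100a8 and -5.56 to 0.47 for Ttr. Without the IV route Kdm6a was at -0.14, Trem2 at 0.17, Ptprc at 0.081 and S100a8 at 1.21. Without the ITL route Kdm5c was at 0.086 and Csf1r at 0.033, and without the ICV route Ttr was at 1.26. Without the 2 libraries with the fewest genes Eif2s3x was at -0.062, Slfn8 at 0.00011, Kdm5c at 0.017, Ptprc at 0.39, S100a8 at 0.30 and Ttr at 0.11. Ptprc was at 0.16 in limma-voom, and Kdm5c at 0.0074 without Rn45s, Xist and the Y-linked genes. With 4 residual degrees of freedom and 1 library per route and population, whether the populations' difference varied by route could not be tested, and genes near 3 counts are not resolved.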

Other observations

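Ctse and Ptprc both lie on chromosome 1, and the genes around them were looked at after the values of Ctse were seen. Of the 57 tested genes between Ctse and Ptprc in the RefSeq order, none was called and 10 had groups that did not overlap, 7 higher (12.3%) and 3 lower (5.26%), against 5.62% and 4.51% of all tested genes. Among the 20 tested genes on each side of Ctse none was called, and its tested neighbours were Fam72a, at a mean of 12.6 CPM in CD45.1 µ and 10.99 CPM in CD45.2 µ (log2 fold change -0.19), and Rab7b, at 48.0 and 65.9 CPM (0.35). In the 10 libraries with an allele label, 6 CD45.1 and 4 CD45.2 with the PBS library, 50 genes had all CD45.2 values above all CD45.1 values and 64 had all below, 0.855% of those tested. On chromosome 1 it was 7 of 795 tested genes, 0.881%.

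Small nucleolar RNAs, a class of short nuclear RNAs that guide changes to ribosomal RNA, were looked at after their values were seen. Of 75 tested, 59 had a positive fitted value with a median of 1.4997, 9 (12%) were higher without overlap, against 5.62% of all tested genes, and none was called by edgeR. Within the routes the median was 0 by IV, 1.75 by ITL and 3.25 by ICV. Their summed level was 805, 1084 and 413 CPM in the IV, ITL and ICV libraries of CD45.1 µ and 1322, 1691 and 1253 CPM in those of CD45.2 µ. It was higher still in CD45.1 TAµ, at 1477, 2198 and 3737 CPM, while the PBS library had 3076 CPM and CTR µ 6901 CPM. The 75 genes of cytosolic ribosomal proteins had a median of -0.02.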
